A study of Mus musculus with 6 samples.

Results

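Nucleotide excision repair cuts out stretches of DNA that carry bulky, helix-distorting damage, such as ultraviolet photoproducts, and fills the gap by new synthesis. Damage is found either anywhere in the genome, by XPC with RAD23B and by the DDB1 and DDB2 complex, or where it stalls RNA polymerase, by the CSB and CSA proteins, encoded by Ercc6 and Ercc8. Both routes hand over to the TFIIH helicases XPB (Ercc3) and XPD (Ercc2), to the damage-verifying protein XPA, and to a pair of nucleases, of which XPG (Ercc5) cuts on the 3′ side. The 10 genes described here are these recognition, helicase, verification, endonuclease and transcription-coupled genes, found by their symbols among the 24110 genes of the deposited table. All 10 were in the table and all 10 passed the filter on low values.

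The libraries came from C57BL/6 mice, from hematopoietic stem cells, which sustain blood formation and were sorted here by the phenotype Lineage-Sca-1+CD48-CD150+. The controls were Prmt5 fl/fl mice, with both alleles of Prmt5 flanked by recombination sites, and the Prmt5 KO mice carried the deleted form of both alleles. Prmt5 encodes a protein arginine methyltransferase. Cells were taken 7 days after induction, each group held 3 libraries, and each library held cells pooled from 2 mice, matched between the genotypes for litter and sex. No source used here gives the recombinase, the inducing agent or the ages. A library is therefore a pool of animals, and p-values measure the spread between pools.

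Of the 10 genes, 1 rose in Prmt5 KO, and none fell past the test. The gene that rose was Ercc5, at 2.40 times its control level, a call that was lost with the replicate number as a block and without any 1 of 5 of the 6 libraries. Ddb2, the damage-binding subunit of the DDB complex, was at 0.667 of its control level and Rad23b, the partner of XPC, at 1.43 times, each with the 3 KO libraries on one side of the 3 control libraries but without passing the test over all genes. The other 7 genes had overlapping groups. Over all 14113 genes tested, 39 were higher and 64 lower in KO (limma, adjusted p at most 0.05), 0.276% and 0.453%. Other scalings gave 35 and 22 (median-of-ratios), 38 and 26 (quantile) and 34 and 26 (edgeR). The median log2 fold change of the 10 genes was 0.0012, with 5 of 10 above 0, beside -0.048 and 44.8% above 0 over all genes tested. At an unadjusted limma p below 0.05 stood 2 genes higher (Ercc5 and Rad23b) and 1 lower (Ddb2), where 4.58% and 13.6% of all genes did.

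The libraries held 37834096 to 44704636 reads in genes, and values are given as scaled counts, set to a common total of 44704636. Prmt5 itself was at 6010 to 6076 scaled counts in the control libraries and at 897 to 1056 in the KO libraries. The sorting-gate genes Ly6a (4969 to 9401) and Slamf1 (2731 to 4489) were present in every library, and Cd48 was at 446 to 757. Kit, which the sorting phenotype above does not name, was at 19323 to 56475. Control replicate 3 stood apart from the other libraries by gene length. Against the mean of the other 5 libraries its median deviation was 0.44 on the log2 scale for tested genes of 38 to 1543 bases and -0.64 for those of 4707 to 104320 bases, the shortest and longest of 5 groups, while the other libraries stayed between -0.19 and 0.22. KO replicate 3 stood apart by markers of neutrophils and monocytes, whose 13 genes summed to 1145513 scaled counts there, against 63484 to 306442 in the controls and 102933 in the lowest KO library. KO replicate 3 was also highest for some T cell markers, such as Cd3e (154 against 0 to 14.2 in the other libraries) and Cd8b1 (116 against 0 to 12.8). Nkg7 (4465 against 3944 to 7020) and Cd4 (85.1 against 63.8 to 172) were not highest there. Control replicate 1 was far above control replicates 2 and 3 for some markers of other cells. These included Mpo (53564 against 8488 and 8340), Prss34 (7122 against 364 and 21.2) and Slc4a1 (1395 against 218 and 86.8). Prtn3 (9448 against 5167 and 9527) and Rhag (1427 against 1184 and 1467) did not show this. Values without control replicate 3, and without KO replicate 3 where it moved a result, are given beside the genes below.

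**Figure D1:**
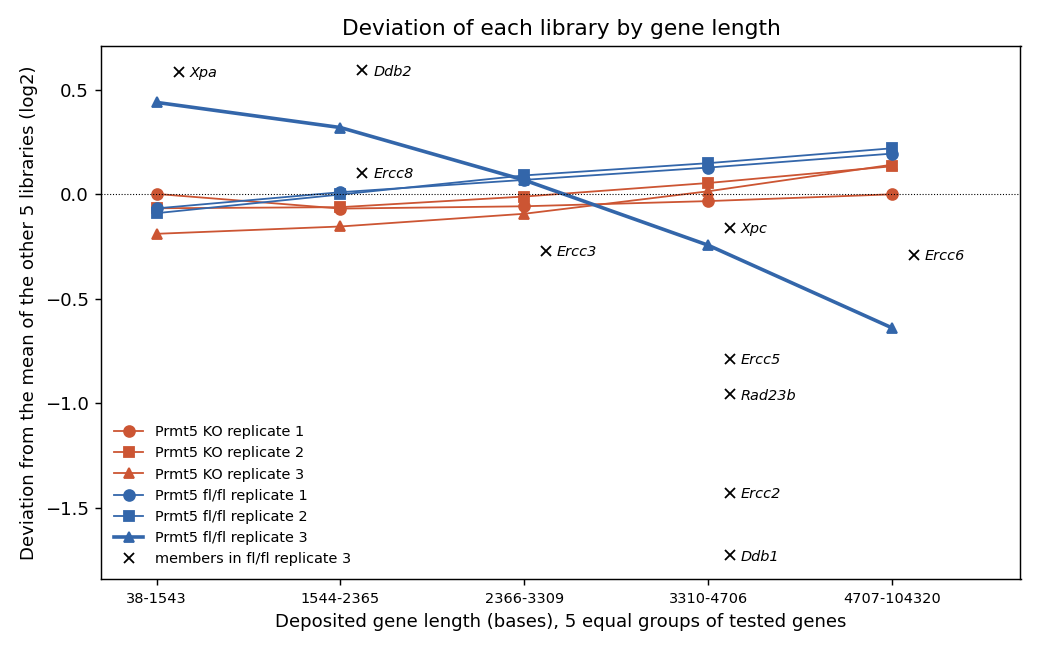
Lines give the median deviation (log2) of each library from the mean of the other 5 libraries for tested genes in 5 groups of equal size by deposited gene length in bases; blue is Prmt5 fl/fl and orange Prmt5 KO. Control replicate 3 runs from 0.44 for the shortest to -0.64 for the longest genes; crosses give the 10 repair genes in that library, and the cross of Ercc5 includes its higher level in the KO libraries.

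Among the genes of global damage recognition, Xpc, which senses distorted DNA, was at 4567, 4415 and 3668 scaled counts in the controls, and its KO values were 3378, 3848 and 4436, both listed from replicate 1 to 3 as for the genes that follow. The groups overlapped, and the log2 fold change was -0.12, with a 95% interval of -0.48 to 0.24 (limma, adjusted p = 0.706). It was -0.22 without control replicate 3 and -0.32 without both replicate 3 libraries (limma, adjusted p = 0.337 and 0.101). Rad23b, which stabilizes XPC, was at 3988, 3844 and 2278 in the controls and at 4953, 4982 and 4481 in KO. All 3 KO libraries were above all 3 controls, and the lowest value was that of control replicate 3. The log2 fold change was 0.55 (95% interval 0.035 to 1.07; limma, adjusted p = 0.249). Without control replicate 3 it was 0.29 (0.081 to 0.51; limma, adjusted p = 0.115). Groups that did not overlap with KO higher were found for 8.3% of all genes tested.

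Ddb1, the large subunit of the DDB complex and the adaptor of the CUL4 ubiquitin ligases, was the most abundant of the 10 genes per length. It was at 25586, 24181 and 7553 scaled counts in the controls and at 24542, 25711 and 25120 in KO. Of the 6 libraries, 5 lay within a narrow band, and control replicate 3 lay at 0.304 of the mean of the other controls. The KO values varied by 2.33% (coefficient of variation, n = 3) and the control values by 52.5%. The log2 fold change was 0.59, with an interval of -0.42 to 1.59 (limma, adjusted p = 0.506). Without control replicate 3 it was 0.014, with an interval of -0.17 to 0.20 (limma, adjusted p = 0.931).

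Ddb2, the subunit that contacts the lesion, was at 1122, 1183 and 1423 scaled counts in the controls and at 770, 923 and 791 in KO. The KO libraries were all below the controls, the highest control value being that of replicate 3. Their means were 1243 ± 159 and 828 ± 82.5 (SD, n = 3 each). On the log2 scale KO minus control was -0.58, with an interval of -0.97 to -0.19 (limma, adjusted p = 0.134). Without control replicate 3 it was -0.48 (95% interval -0.81 to -0.15; limma, adjusted p = 0.101). Lower groups without overlap were found for 19.9% of all genes tested. The 3′ end of Ddb2 shares 652 of its 2736 exon bases with Acp2, a lysosomal phosphatase on the other strand, and the kits used keep no record of strand. Acp2 itself was at 1731 ± 87.3 and 1421 ± 130 (SD, n = 3 each; limma, adjusted p = 0.331).

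**Figure D2:**
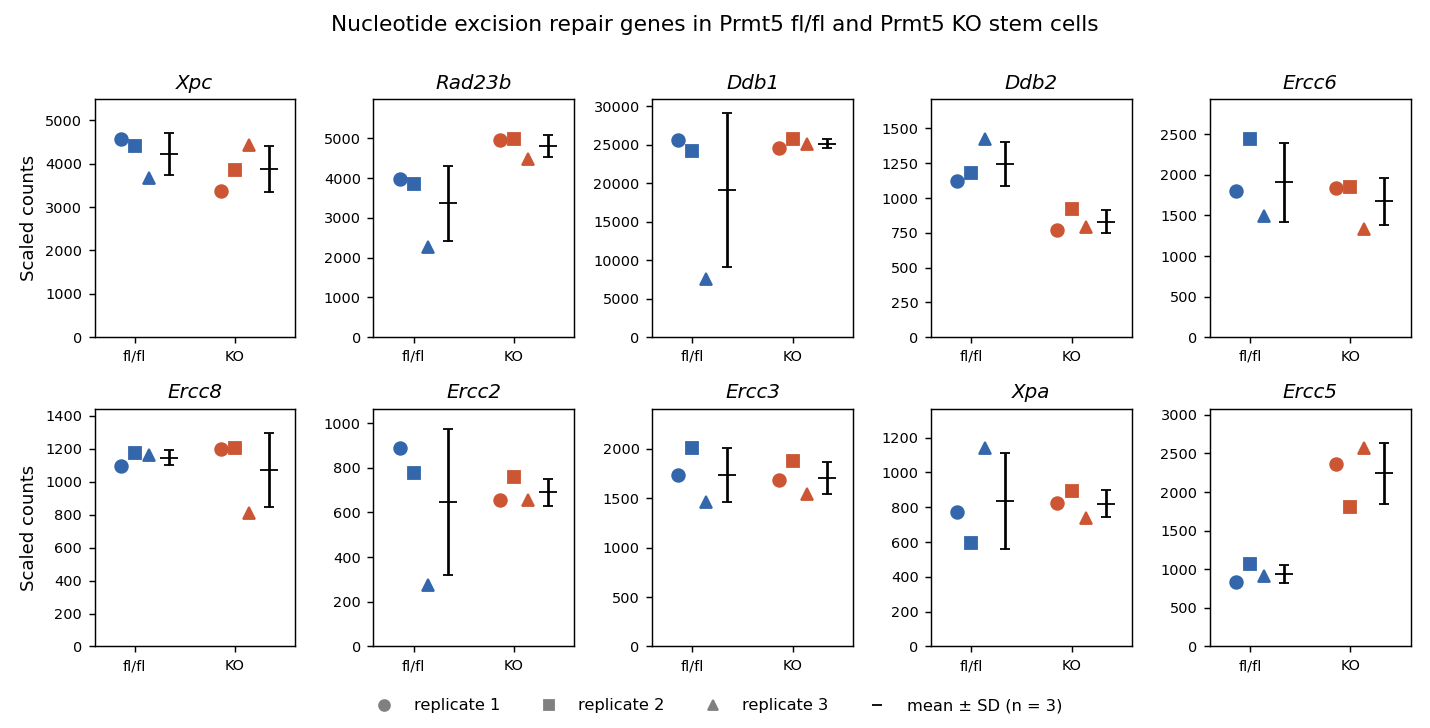
Scaled counts of each of the 10 repair genes in the 3 Prmt5 fl/fl (blue) and 3 Prmt5 KO (orange) libraries, with symbols for replicates 1 to 3 and the mean ± SD beside each group; every axis starts at 0. Ercc5 shows the groups farthest apart, and Ddb1, Ercc2 and Rad23b show control replicate 3 (triangle) below the other controls.

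The genes of transcription-coupled repair had overlapping groups. Ercc6, the DNA-dependent ATPase CSB that binds stalled polymerase, was at 1796, 2440 and 1487 scaled counts in the controls and at 1837, 1844 and 1334 in KO. Its log2 fold change was -0.18, with an interval of -0.70 to 0.35 (limma, adjusted p = 0.705), and -0.34 without control replicate 3 (limma, adjusted p = 0.334). Without KO replicate 3 it was -0.021 (limma, adjusted p = 0.980). Ercc8, the CSA subunit of a CUL4 ligase, was at 1093, 1177 and 1165 in the controls and at 1201, 1203 and 809 in KO. KO replicate 3 was the single library outside the band of 1093 to 1203. Its log2 fold change was -0.12, with an interval of -0.57 to 0.33 (limma, adjusted p = 0.772), and 0.070 without KO replicate 3.

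Of the TFIIH helicases, Ercc2 again had control replicate 3 far below the other libraries, and Ercc3 did not. Ercc2, the XPD helicase that opens DNA around the lesion, was at 887, 775 and 274 scaled counts in the controls and at 655, 759 and 654 in KO. The value of 274 was 0.33 of the mean of the other controls. The log2 fold change was 0.26 with an interval of -0.72 to 1.25 (limma, adjusted p = 0.771). Without control replicate 3 its sign turned, to -0.27 with an interval of -0.63 to 0.087 (limma, adjusted p = 0.326). Ercc2 shares 1025 of its 4170 exon bases with the antisense gene Gm26852 and 744 with Klc3, a kinesin light chain on the other strand, which was at 118 to 230 scaled counts. Ercc3, the XPB translocase, was at 1732, 2004 and 1461 in the controls and at 1689, 1877 and 1547 in KO. Its log2 fold change was -0.016, with an interval of -0.40 to 0.37 (limma, adjusted p = 0.968), and -0.13 without control replicate 3 (limma, adjusted p = 0.571).

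Xpa, the scaffold that verifies the damage and binds the other incision factors, was at 774, 596 and 1138 scaled counts in the controls and at 825, 894 and 741 in KO. The KO values lay inside the range of the controls. Its log2 fold change was 0.018, with an interval of -0.57 to 0.60 (limma, adjusted p = 0.975). Without control replicate 3, its highest library, the value was 0.27 (-0.14 to 0.67; limma, adjusted p = 0.389). For each of the 7 genes with overlapping groups the interval reached at least 0.40 on the log2 scale on one side, the smallest such bound being that of Ercc3, so a missed threshold does not show equal levels. Xpa shares 77 of its 1894 exon bases with Ncbp1, a cap-binding protein gene on the other strand, at 7565 ± 1351 and 8029 ± 572 scaled counts (SD, n = 3 each).

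Ercc5, the XPG nuclease, was at 832, 1065 and 913 scaled counts in the controls and at 2368, 1805 and 2566 in KO. All 3 KO libraries were above all 3 controls. The group means were 937 ± 118 and 2246 ± 395 (SD, n = 3 each). KO minus control was 1.25 on the log2 scale (SE 0.19, 95% interval 0.82 to 1.69; limma, adjusted p = 0.0429). Same-numbered libraries of the genotypes share a title prefix whose meaning the labels do not give, and with that number as a block the value was 1.25 (limma, adjusted p = 0.197, with 2 residual degrees of freedom and 0.00709% of all genes called higher). In bulk samples, fewer cells of a type and less RNA per cell cannot be told apart. Control replicate 3, at 0.962 of the mean of the other controls, did not set the value: without it the log2 fold change was 1.24 (limma, adjusted p = 0.0311), and without both replicate 3 libraries it was 1.13 (limma, adjusted p = 0.0354). Without any other single library the log2 fold change lay between 1.149 and 1.40 and the limma adjusted p between 0.0870 and 0.227, so the call was lost. Those fits called 1 to 15 genes higher over all genes: 0.0284% without control replicate 1, 0.0284% without control replicate 2, and, when a KO library was left out, 0.00708% (replicate 1), 0.106% (replicate 2) or 0.00712% (replicate 3). The share higher was 0.851% without control replicate 3 and 1.38% without both replicate 3 libraries. EdgeR and DESeq2 on the recovered reads called Ercc5 as well (adjusted p = 0.0462 and 1.38e-07), where they called 0.241% and 2.59% of all genes higher.

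Ercc5 lies on chromosome 1 (44147744 to 44181260, plus strand, 15 exons in its longest coding transcript, GRCm38/mm10 with GENCODE M21), and no other annotated gene overlaps it. Bivm, its nearest coding neighbour on the upstream side, ends 2973 bases before it on the same strand. Bivm was at 1582 ± 185 and 1659 ± 304 scaled counts (SD, n = 3 each), which differ by 0.059 in log2 (limma, adjusted p = 0.889). Markers of other cells, and p53 targets, moved with the genotype beside Ercc5. Of 14 megakaryocyte and platelet markers, 2 fell, Itga2b and Rab27b, where 0.453% of all genes did, and 6 fell without control replicate 3, where 1.82% did. At an unadjusted limma p below 0.05, 7 were lower and 1 higher, where 13.6% and 4.58% of all genes were. The list summed to 108634 to 130652 scaled counts in the controls and 58833 to 86492 in KO. Of 9 tested red cell precursor markers, 2 fell, Klf1 and Rhag, where 0.453% of all genes did. By unadjusted limma p below 0.05, 5 were lower and 0 higher, where 13.6% and 4.58% of all genes were. List sums were 6536 to 14970 and 5213 to 5649, and the globin genes Hba-a1, Hbb-bt and Hbb-bs were listed at 0 in every library. Of 19 tested targets of the transcription factor p53, 6 rose, where 0.276% of all genes did, and 9 rose without control replicate 3, where 0.851% did. At an unadjusted limma p below 0.05, 15 were higher and 0 lower, where 4.58% and 13.6% of all genes were. Groups did not overlap for 14 higher and 1 lower (Rrm2b), where 8.3% and 19.9% of all genes did. The list holds none of the 10 repair genes, so its counts leave out Ddb2 (log2 -0.58) and Xpc (-0.12) as well as Ercc5 (1.25). It was chosen with earlier results of these data known. Among the 6 targets that rose was Cdkn1a, the p21 inhibitor of the cell cycle, at 699 ± 165 and 5002 ± 1632 (SD, n = 3 each). Trp53, which encodes p53, differed by 0.20 in log2 (limma, adjusted p = 0.450). The lists summed to 63484 to 306442 and 102933 to 1145513 for neutrophils and monocytes, and 1859 to 2956 and 1617 to 1870 for B cells. Sums were 5315 to 8081 and 5061 to 6538 for T and NK cells, and 17234 to 30984 and 17466 to 19964 for mast cells and basophils. Over all libraries, Nkg7 (3944 to 7020) was the largest part of the T and NK sums. Gata2 (15553 to 24709) was the largest part of the mast cell and basophil sums. Limma called 0 members in each of these lists. Its unadjusted p was below 0.05 for 1 of 13, 0 of 5, 2 of 10 and 0 of 6 tested members, against 18.2% of all genes. The part of these cells in the Ercc5 result was not tested.

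**Figure D3:**
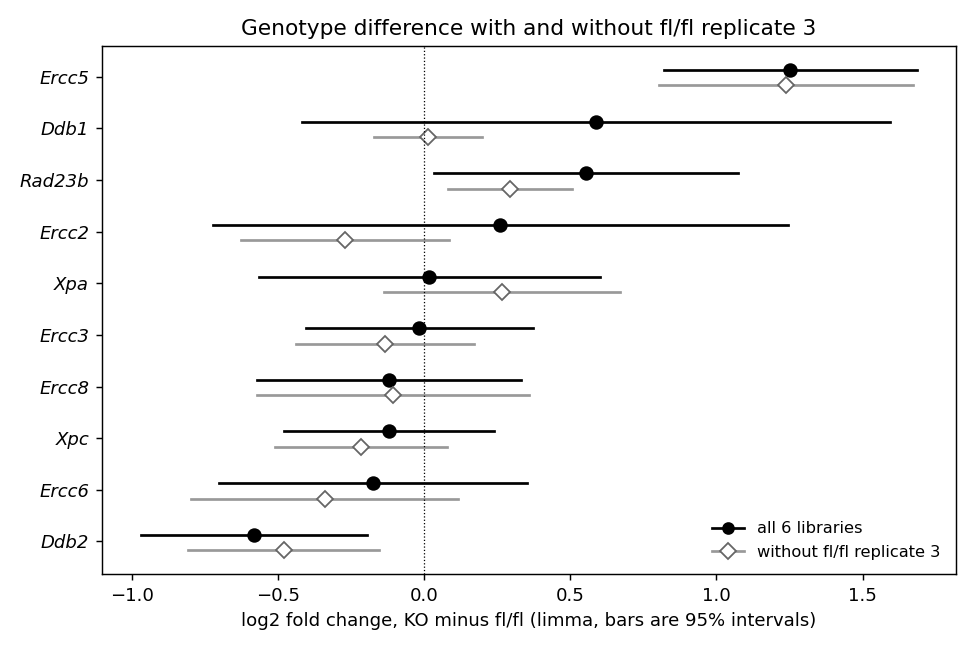
Log2 fold change of KO minus fl/fl for the 10 repair genes with 95% intervals from limma, with all 6 libraries (filled circles) and without control replicate 3 (open diamonds). Ercc5 lies at 1.25 and 1.24, Ddb1 goes from 0.59 to 0.014 with a far narrower interval, and Ercc2 goes from 0.26 to -0.27.

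Upstream sequence is shown for Ercc5 and Rad23b, the genes with a RefSeq window (7 of the 10 genes had one) that were higher in KO without overlap between the genotypes. Each run holds the 250 bases before the RefSeq start on the plus strand of GRCm38.p6, chr1:44147494-44147743 and chr4:55349792-55350041, written 5′ to 3′. Capitals mark 4 motifs searched on both strands: the GC box, GGGCGG; the CCAAT box; the core bound by NRF1, which is TGCGCA; and the E-box, which is CACGTG. None overlap in these windows.
Ercc5 upstream: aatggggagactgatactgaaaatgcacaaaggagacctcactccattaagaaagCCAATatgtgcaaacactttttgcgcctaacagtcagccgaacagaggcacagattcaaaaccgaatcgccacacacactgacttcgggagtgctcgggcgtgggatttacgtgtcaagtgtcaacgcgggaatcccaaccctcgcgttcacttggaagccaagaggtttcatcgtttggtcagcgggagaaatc
Rad23b upstream: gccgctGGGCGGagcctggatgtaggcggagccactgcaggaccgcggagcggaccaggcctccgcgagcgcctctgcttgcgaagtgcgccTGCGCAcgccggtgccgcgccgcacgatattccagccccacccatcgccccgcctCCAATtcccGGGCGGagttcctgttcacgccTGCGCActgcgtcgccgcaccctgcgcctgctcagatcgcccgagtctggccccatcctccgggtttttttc
The Ercc5 window had 14 CpG sites and 1 CCAAT, and the Rad23b window had 31 CpG sites, 2 GC boxes, 1 CCAAT and 2 NRF1 cores. The 7 windows held 10 to 31 CpG sites, against a median of 6 (quartiles 2 and 16) over all windows. The GC box, the NRF1 core and the E-box contain CpG, and the shares that follow were not compared at equal CpG content. Over the 7 windows, the GC box was in 5 (32.7% of 32851 windows of all genes), the CCAAT box in 5 (33.9%), the NRF1 core in 3 (6.43%) and the E-box in 2 (6.02%). A p53 decamer was in 0 of the 7, against 7.13% of all windows. A match is a run of letters, not a bound site, and a missing match speaks for this window only.

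The other 9 genes lie apart from each other in the genome (GRCm38/mm10 with GENCODE M21). Of the recognition genes, Xpc lies at chr6:91489305-91515888 (minus strand, 16 exons in its longest coding transcript), Rad23b at chr4:55350043-55392237 (plus, 10), Ddb1 at chr19:10605327-10629819 (plus, 27) and Ddb2 at chr2:91211572-91236982 (minus, 9). Ercc6 lies at chr14:32513521-32580990 (plus, 21) and Ercc8 at chr13:108158731-108195364 (plus, 12). Ercc2 lies at chr7:19382010-19395694 (plus, 23), Ercc3 at chr18:32240300-32270151 (plus, 15) and Xpa at chr4:46155347-46196311 (minus, 6).

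Levels per length put the 10 genes in an order that can be compared between genes. Per kilobase of deposited gene length, Ddb1 was at 4590 ± 2409 scaled counts in the controls and 6035 ± 140 in KO (SD, n = 3 each), at the 94.5th percentile of the tested genes. Xpc (1161 ± 132 and 1070 ± 146), Rad23b (884 ± 249 and 1261 ± 73.9) and Xpa (876 ± 290 and 858 ± 80.3) followed. Ercc3, Ddb2 and Ercc8 were at 543 to 649 per kilobase in the controls. Ercc5 at 234 ± 29.5, Ercc6 at 226 ± 57.7 and Ercc2 at 182 ± 91.9 were the lowest in the controls and did not differ beyond their spread. In KO, Ercc5 was at 560 ± 98.5 per kilobase, in the range of Ercc8 (508 ± 108) and Ercc3 (638 ± 61.9), while Ercc6 and Ercc2 were at 199 ± 34.8 and 194 ± 17.02. The order of the 10 genes was similar between libraries, with a rank correlation of 0.77 to 0.964 over the 10 genes for each pair of libraries, given as a description.

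Ratios between genes whose products work together, taken within each library, do not depend on the scaling between libraries. The log2 ratio of Ercc5 to Ercc4, which encodes the XPF nuclease that cuts on the 5′ side, was -1.71, -1.49 and -1.24 in the controls and 0.014, -0.44 and 0.0053 in KO. The difference was 1.34, and the groups did not overlap. The ratio of Ercc5 to Xpa differed by 1.23, that of Xpc to Rad23b by -0.67 and that of Ddb2 to Ddb1 by -1.17, all 3 without overlap. For these 4 pairs the exact permutation test, two-sided, gave p = 0.1, the smallest that 3 against 3 libraries allow, and 0.15 after adjustment over the 6 pairs. Each of the 4 holds Ercc5, Rad23b or Ddb2, whose own groups did not overlap, as for 28.2% of all genes tested. The 4 ratios are therefore not separate from those genes, and the share over other gene pairs was not computed. Without control replicate 3 the 4 differences were 1.46, 0.97, -0.51 and -0.49, so that of Ddb2 to Ddb1 moved most, its Ddb1 value in that library being the low one. The ratios of Ercc6 to Ercc8 (difference -0.056) and of Ercc2 to Ercc3 (0.28) overlapped between the groups (exact permutation test, p = 0.8 and 0.7; both 0.8 after adjustment).

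**Figure D4:**
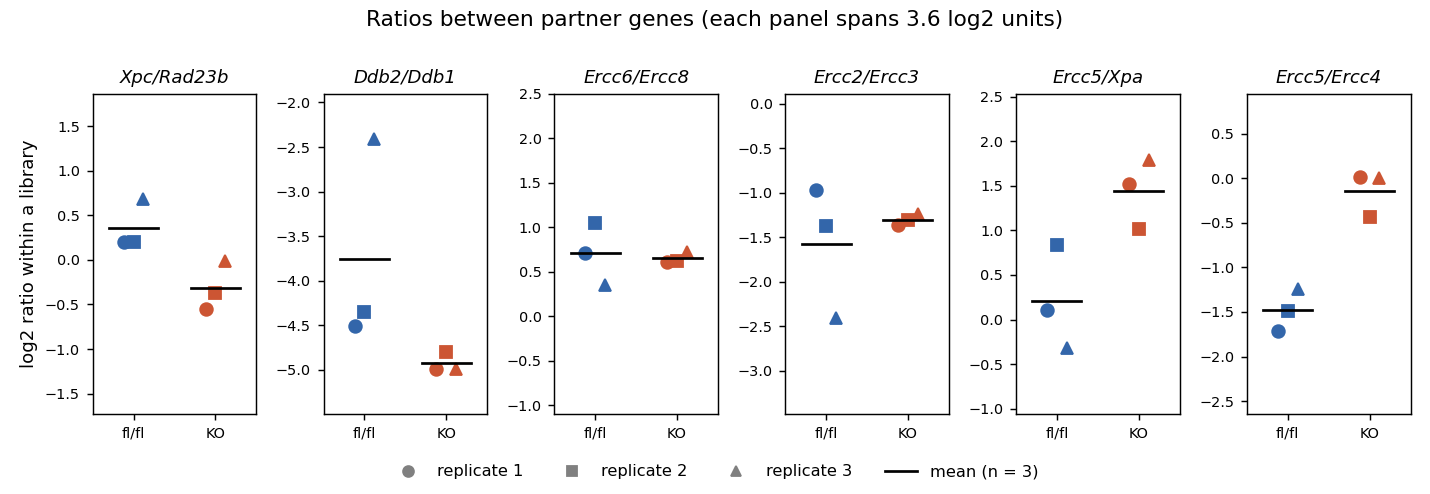
Log2 ratio between partner genes in each library of Prmt5 fl/fl (blue) and Prmt5 KO (orange), with bars at the mean; each panel spans the same number of log2 units, and symbols mark replicates 1 to 3. Ercc5/Ercc4 is at most -1.24 in the controls and at least -0.44 in the KO libraries, and the Ddb2/Ddb1 ratio of control replicate 3, at -2.41, lies far above the other 5.

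The other genes of the pathway, a list of 43, did not pass the test: limma and edgeR called 0 in either direction (edgeR called 0.184% of all genes lower), and DESeq2 called 1 higher (Polk) and 1 lower (Pold4), where it called 2.59% and 4.36% of all genes. By limma, 4 of 43 had an unadjusted p below 0.05, 1 higher and 3 lower, against 4.58% and 13.6% of all genes tested. The median log2 fold change was -0.039. Pold4, the small accessory subunit of DNA polymerase delta, was at 943, 1183 and 1832 scaled counts in the controls and at 613, 707 and 571 in KO (log2 -1.01; limma, adjusted p = 0.109). Ercc1, the partner of XPF in the 5′ nuclease, was at 1146, 1269 and 1831 and at 930, 999 and 900 (log2 -0.56; limma, adjusted p = 0.210). Both had all KO values below all control values, as did 6 of the 43 genes in all and 19.9% of all genes tested. Both had their highest value in control replicate 3, and both are short (913 and 1487 bases). Without that library their log2 fold changes were -0.75 and -0.36 (limma, adjusted p = 0.0635 and 0.153).

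Rfc2, a subunit of the clamp loader of repair synthesis, was lower by value (log2 -0.45; limma, adjusted p = 0.190). Polk, a DNA polymerase that fills repair gaps and is also counted among the p53 targets above, was at 1206, 1308 and 1172 in the controls and at 1494, 1616 and 1723 in KO (log2 0.39; limma, adjusted p = 0.202). Cul4b, a scaffold of the DDB1 ligases, and Rfc3, another clamp loader subunit, had log2 fold changes of 0.28 and 0.21 (limma, adjusted p = 0.439 and 0.474). Their values were 0.10 and 0.30 without control replicate 3 (limma, adjusted p = 0.546 and 0.145). Ercc4 (log2 -0.088) and Uvssa, a stabilizer of CSB (log2 -0.035), had limma adjusted p of 0.798 and 0.929. They were at -0.22 and -0.16 without control replicate 3, and the KO libraries of both lay below the controls left (limma, adjusted p = 0.225 and 0.461). By role, the 8 TFIIH subunits other than the helicases lay between -0.33 and 0.12, the 3 RPA subunits, which coat the undamaged strand, between -0.17 and -0.029, and the 18 genes of repair synthesis and ligation between -1.01 and 0.39.

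**Figure D5:**
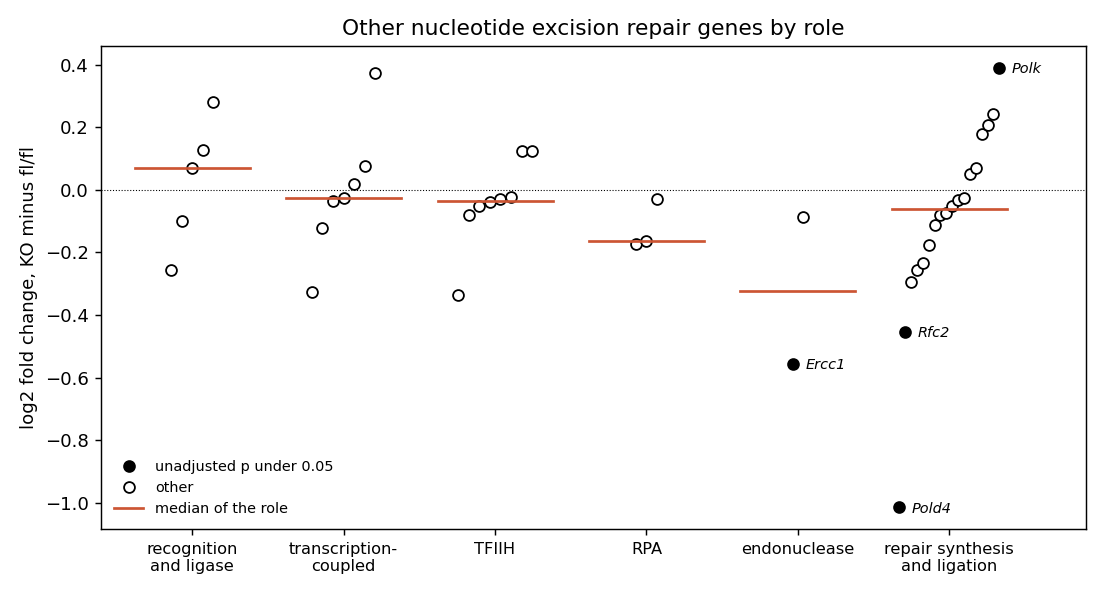
Log2 fold change of KO minus fl/fl for the 43 other nucleotide excision repair genes by role, with filled points for an unadjusted limma p under 0.05 and a bar at the median of each role. Of the 43 points, 14 lie above 0; Pold4 at -1.01 lies farthest from it.

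The low values of control replicate 3 were followed through the pathway. That library was the lowest of the 6 for 4 of the 10 genes (Ddb1, Rad23b, Ercc2 and Ercc3) and the highest for 2 (Ddb2 and Xpa), against 31% and 34.6% of all tested genes. Of the 43 other genes it was the lowest for 12 and the highest for 23. Against the mean of the other controls, its log2 difference was -1.72 for Ddb1, -1.59 for Ercc2 and -0.78 for Rad23b, and -1.21, -1.03 and -0.49 after a correction for gene length and GC content. It was 0.31 for Ddb2 and 0.74 for Xpa, and -0.044 for Ercc5. Summed over the 10 genes, the level was 42376, 41680 and 21361 scaled counts in control replicates 1 to 3 and 42217 to 43847 in KO, and Ddb1 alone gave 25586, 24181 and 7553 of the control sums.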

How the data were processed

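Per the labels' protocols, RNA was taken with Trizol and made into libraries with SMART-Seq v4 and Nextera XT, which do not mark strand. Per the submitters' processing notes, STAR, featureCounts and mm10 were used, and no source used here gives their versions. The table deposited by the authors holds 24110 genes, and its column of Prmt5 fl/fl replicate 2 has raw counts. The other 5 deposited columns hold a scaled signal, that is each count times 44704636 over the total of its library, and undoing this gave whole reads for 100% of values within 1e-06. The deposited gene length is in bases.

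The filter kept genes whose mean reached 10 scaled counts (14113). Genotypes were compared with limma 3.58.1 (R 4.3.3) with a trend, two-sided, on log2(value + 1), a scale that understates changes of low genes, leaving 4 residual degrees of freedom. The Benjamini-Hochberg adjustment ran over all genes tested, at 0.05. Recovered reads were tested with edgeR 4.0.16 and DESeq2 1.42.0. Partner ratios used an exact permutation test. Only the main limma fit was tested on simulated data, with the same dispersion for every gene, no outlying library and no trend with gene length. Total reads of 37834096 to 44704636 gave each of the 10 genes at least 259 reads per library, a counting error of at most 6.21%. No library was a copy of another. Figures used Python 3.11.15 and matplotlib 3.10.9. Coordinates are from GENCODE M21 on GRCm38/mm10, and promoter sequences from RefSeq.

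The 10 genes and all lists were chosen with earlier results of these data known. Named were the 10 genes, Prmt5, Trp53, Cdkn1a, genes overlapping the 10, the 3 genes most like Ercc5, and of the 43 other repair genes those called, the 3 with the smallest p in each direction, and Ercc1, Ercc4 and Uvssa. A gene that the rule took is not reported here. Bivm, Lsm3 and Ndufaf2, added for their position, and the marker genes fall outside this rule and were chosen after their values were seen. Alternatives were other tools, scalings, pseudocounts and filters, a replicate block, each library left out, and, chosen after seeing the data, corrections for length and GC content and leaving out both replicate 3 libraries.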

Additional observations from a re-analysis of the deposited data

How the results depend on the processing

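The counts over all genes (39 higher, 64 lower) depended most on the settings. DESeq2 gave 365 and 616, a length correction 131 and 125, length and GC content together 158 and 143, and leaving out both replicate 3 libraries 194 and 343, the last 3 chosen after seeing the data. Lower genes numbered 26 with edgeR, 22 with median-of-ratios, 26 with quantile scaling and 38 with no filter. Leaving out 1 library gave 1 to 120 higher and 2 to 257 lower, both highest without fl/fl replicate 3, and 0 to 1 of the 10 repair genes higher. Ercc5 ranged from 1.149 to 1.40 (log2) over these fits, was 1.13 without both replicate 3 libraries, and was lost without a trend (1.25; limma, adjusted p = 0.0626, 0 repair genes higher). DESeq2 called 1 higher and 1 lower of the other 43 genes. Some signs turned, and the cause was not tested. Not all of these were near 0: with all 6 libraries Ercc2 was at 0.26 and the Ercc2 to Ercc3 ratio differed by 0.28. Ercc3 was 0.038 with edgeR, 0.062 with DESeq2, 0.071 with median-of-ratios, 0.018 with quantile scaling, 0.11 with the length correction and 0.12 with length and GC. Ercc8 was 0.065 and 0.076 with the 2 corrections and 0.083 without both replicate 3 libraries, and Ercc2 was -0.23 and Xpa 0.34 without them. With 1 library left out the ranges were -0.27 to 0.58 for Ercc2, -0.13 to 0.095 for Ercc3, -0.34 to 0.017 for Ercc6, -0.22 to 0.070 for Ercc8, -0.20 to 0.27 for Xpa, -0.14 to 0.59 for the Ercc2 to Ercc3 ratio and -0.23 to 0.12 for the Ercc6 to Ercc8 ratio. The median of the 10 genes was 0.15 and 0.16 with the corrections and -0.12 without fl/fl replicate 3.

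Same-numbered libraries of the genotypes share a title prefix as well as the number, and the mice were matched for litter, but no label gives the meaning of that prefix. Deviations of same-numbered libraries correlated at -0.14, 0.0675 and -0.256 across genes, and those of differently numbered libraries at -0.251 to 0.347. With 3 libraries in each group, and replicate 3 of each standing apart, these values cannot show whether pairs share an effect. With the replicate block, 2 residual degrees of freedom remained, 1 gene was higher and 0 lower over all genes, 0 of the 10 repair genes were called, Ercc5 was at 1.25 (limma, adjusted p = 0.197) and Prmt5 at -2.60 (limma, adjusted p = 0.0618).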

Other observations

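The 3 tested genes whose log2 values over the 6 libraries were most like those of Ercc5 were Cebpz (Pearson r = 0.9985), Eda2r (0.9961) and Egr1 (0.9938), given as a description over few libraries: 72 genes had an r above 0.95. Their log2 fold changes were 0.15, 3.06 and 1.37 (limma, adjusted p = 0.477, 0.0195 and 0.0301). Eda2r, which encodes a death-domain receptor, is also among the p53 targets counted above.

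Of the 10 repair genes, Xpc and Ercc8 start close to a gene on the other strand without overlapping it. Lsm3, a subunit of the RNA-binding LSM ring, lies 39 bases from Xpc and was at 5564 ± 1561 and 6593 ± 586 scaled counts (SD, n = 3 each). Ndufaf2, an assembly factor of respiratory complex I, lies 107 bases from Ercc8 and was at 1253 ± 247 and 1235 ± 180. Neither passed the test (log2 0.28 and -0.015; limma, over all genes), nor did they without control replicate 3 (log2 0.49 and 0.14; limma, adjusted p = 0.0570 and 0.629). Tkfc, also on the other strand, overlaps the start of Ddb1 and shares 328 of the 6409 Ddb1 exon bases. Tkfc was at 546, 479 and 198 in the controls and at 300, 254 and 325 in KO. Its lowest value, like that of Ddb1, was in control replicate 3.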
